A study of Caenorhabditis elegans with 3 samples.

Results

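Molting in the nematode Caenorhabditis elegans is the shedding of the old cuticle and the making of a new one at the end of each larval stage. The genes described here are 9 genes known for this process: the nuclear hormone receptors nhr-23 and nhr-25, the molting-defective genes mlt-8, mlt-9, mlt-10 and mlt-11, the lipoprotein receptor gene lrp-1 and the kinase genes nekl-2 and nekl-3. They were chosen by gene symbol in the platform's annotation, which gave 1 probe for each of the 9 genes, out of 15168 genes with a probe naming 1 gene. The study put RNA of TP04 early L4 hermaphrodites, the last larval stage before the adult, on 2-colour microarrays against an mRNA reference labelled wild type and mixed. There were 3 worm preparations, 1 array each, forming 1 group. The sources used here do not give the strain of the worms, their age in hours, how they were grown or what made up the reference.

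The epidermis secretes each new cuticle on its outer face while the old one is loosened by secreted proteases. As background, nhr-23 (related to Drosophila DHR3 and the mammalian ROR receptors) and nhr-25 (related to Drosophila Ftz-F1) are transcription factors whose loss disturbs molts, and RNA of many molting genes, nhr-23 among them, oscillates once per larval stage. The protein of mlt-11 carries Kunitz-type protease inhibitor domains, and mlt-8, mlt-9 and mlt-10 were named for unshed cuticles after loss of function or RNA interference. lrp-1 encodes a megalin-like endocytic receptor of the epidermis, and nekl-2 and nekl-3 encode NIMA-related kinases that act with ankyrin-repeat MLT proteins in clathrin-mediated endocytosis of the same tissue.

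Values are log2 ratios of the 2 channels, centred on the median of each array, so that 0 is the typical probe and 1 is a doubling. Which channel stands on top of the ratio is not stated. Early L4 on top is the likely reading, since each description puts these worms ahead of the reference, and "higher" or "rose" rests on it throughout. Each gene's mean was tested against 0 with limma over 15159 genes, and a gene passed at a Benjamini-Hochberg adjusted p under 0.05. Errors are SDs over the 3 arrays (n = 3). The ratios carry no spot brightness, only 3 arrays limit the precision, and the test leaves out the spread of the reference itself. Whether the preparations were separate cultures is not stated, so the p-values reflect array-to-array spread alone, which may be technical. In RNA of whole worms, fewer cells of a type and less RNA per cell cannot be told apart. Across 15128 genes measured on every array the pairwise Pearson correlations lay between 0.643 and 0.809, a description of arrays that share their reference, and the median SD of a gene was 0.36.

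Of the 9 genes, 5 rose in early L4 worms and 0 fell, while 4 did not pass. At an unadjusted p under 0.05 there were 7, of which nhr-25 was lower. The share of all genes at that looser threshold was not computed. It is larger than the share after adjustment, so the 7 have no background here. Those that rose were mlt-8, mlt-9, mlt-10, mlt-11 and nhr-23, with mean ratios between 1.86-fold and 3.95-fold. Over all genes tested, 22.7% were called in either direction, 12.6% higher and 10.1% lower. The median log2 ratio of the 9 genes was 0.89, against -0.0064 over all genes. In all, 6 of the 9 were above 0 on every array, 1 (nhr-25) was below 0 on every array and 2 had mixed signs. The same shares over all genes were not computed, and the arrays share their reference, so these sign counts are a description. How many of the 9 passed varied with the preparation left out: 3 without preparation 3, 4 without preparation 2 and 6 without preparation 1. The share of all genes called varied too, at 18.2%, 16% and 26% in the same order, against 22.7% with every array. These fits rest on 2 arrays, so limma took much of each gene's spread from all genes. Without preparation 3, nhr-23 (mean 0.74) and mlt-11 (0.71) had limma unadjusted p = 0.0396 and 0.0489. The 2 remaining values of mlt-11 lay farther apart than those of nhr-23. Calls in that fit thus follow the size of the mean more than a gene's own spread.

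**Figure D1:**
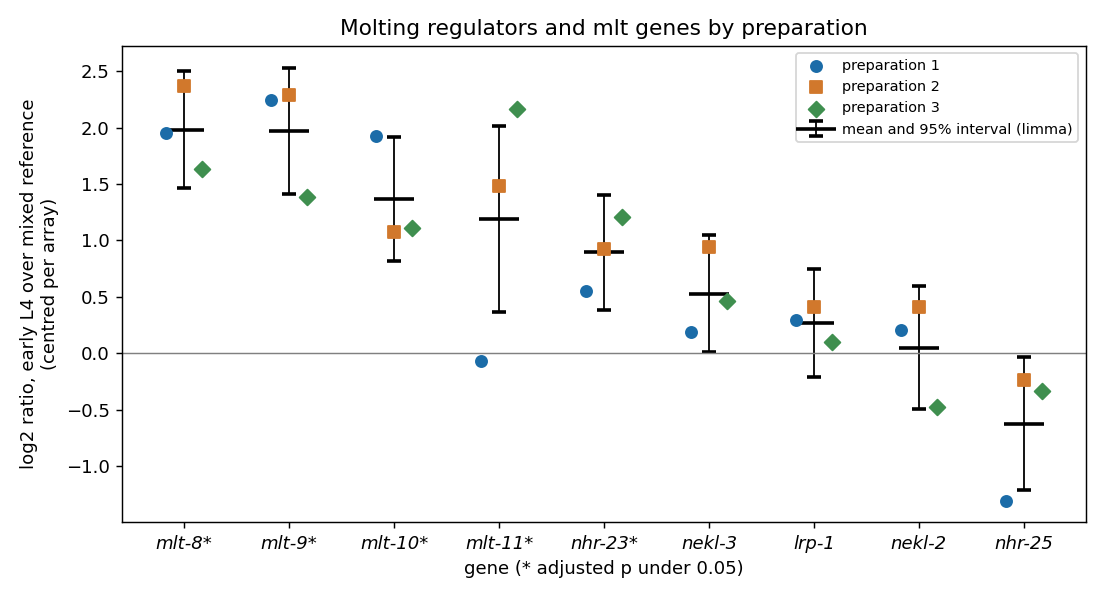
Centred log2 ratio of early L4 over mixed reference (vertical axis) for each of the 9 genes, with 1 point per preparation, the mean as a bar and the limma 95% interval as whiskers. mlt-8, mlt-9 and mlt-10 sit above 1 in every preparation, mlt-11 spans -0.07 to 2.17, and nhr-25 is the one gene below 0 in all 3.

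The transcription factor genes nhr-23 and nhr-25 had ratios of opposite sign, and nhr-23 passed the test. nhr-23 (C01H6.5) had log2 ratios of 0.55, 0.92 and 1.21 in preparations 1, 2 and 3. All were above 0, and preparation 1 was the lowest. The mean was 0.89 ± 0.33 (SD, n = 3), a 1.86-fold difference with a 95% interval of 1.31-fold to 2.65-fold (limma adjusted p = 0.0193). The call was lost without preparation 2 (adjusted p = 0.0873) and without preparation 3 (adjusted p = 0.15), with adjusted p-values between 0.00843 and 0.15 over 9 alternatives.

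nhr-25 (F11C1.6) had -1.31, -0.23 and -0.33 in preparations 1, 2 and 3. All were below 0, and preparation 1 stood well below the other two. The mean was -0.62 ± 0.59 (SD, n = 3; limma adjusted p = 0.123, unadjusted p = 0.0397), and the 95% interval of the log2 ratio, -1.21 to -0.04, lay just under 0 before adjustment. Without preparation 1 the mean was -0.28. On every array nhr-23 was above nhr-25, by 1.86, 1.16 and 1.54 log2 units. The mean of this difference was 1.52 ± 0.35 (SD, n = 3; exact sign permutation test, two-sided, p = 0.25, the smallest that 3 arrays allow).

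nhr-23 was among the higher genes of its class. Of 237 nuclear hormone receptor (nhr) genes measured, 10 rose and 24 fell (14.3% called, against 22.7% of all genes), and the median log2 ratio was -0.12. nhr-23 ranked 6 from the top of the 237 and nhr-25 ranked 35 from the bottom. This class was added after the values were seen.

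mlt-8, mlt-9 and mlt-10 were the genes with the firmest calls. mlt-8 (W08F4.6) had 1.95, 2.37 and 1.63 in preparations 1, 2 and 3, a mean of 1.98 ± 0.37 (SD, n = 3) and a 3.95-fold difference (95% interval 2.76-fold to 5.67-fold; limma adjusted p = 0.000393). mlt-9 (F09B12.1) had 2.25, 2.29 and 1.38, a mean of 1.97 ± 0.51 and a 3.93-fold difference (95% interval 2.66-fold to 5.79-fold; limma adjusted p = 0.000563). These means differed by less than the SD of either gene. Only 1.72% of all genes had a higher mean ratio than mlt-8, and 1.77% than mlt-9.

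mlt-10 (C09E8.3), whose protein is made of repeats found in nematodes, had 1.92, 1.07 and 1.11 in preparations 1, 2 and 3. Preparation 1 was the highest here, unlike for either receptor gene. The mean was 1.37 ± 0.48 (SD, n = 3), a 2.58-fold difference (95% interval 1.77-fold to 3.78-fold; limma adjusted p = 0.00348), with 4.77% of genes higher. mlt-8, mlt-9 and mlt-10 stayed past the threshold in all 9 alternatives run on each of them.

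mlt-11 (W01F3.3), the protease inhibitor gene, was the most variable of the 9. It had -0.07 in preparation 1, 1.48 in preparation 2 and 2.17 in preparation 3. Preparation 1 was thus at the level of the typical probe while the others were clearly above it. The mean was 1.19 ± 1.14 (SD, n = 3), a 2.29-fold difference with a 95% interval of 1.29-fold to 4.05-fold (limma adjusted p = 0.0431). Only 1.04% of genes had a higher SD. The call was lost without preparation 3 (adjusted p = 0.172), with eBayes trend and robust settings (0.0513) and when every probe was tested, unnamed ones included (0.0525). Its adjusted p lay between 0.00196, reached without preparation 1, and 0.172 over 9 alternatives, and its mean was 1.82 without preparation 1 and 0.71 without preparation 3.

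**Figure D2:**
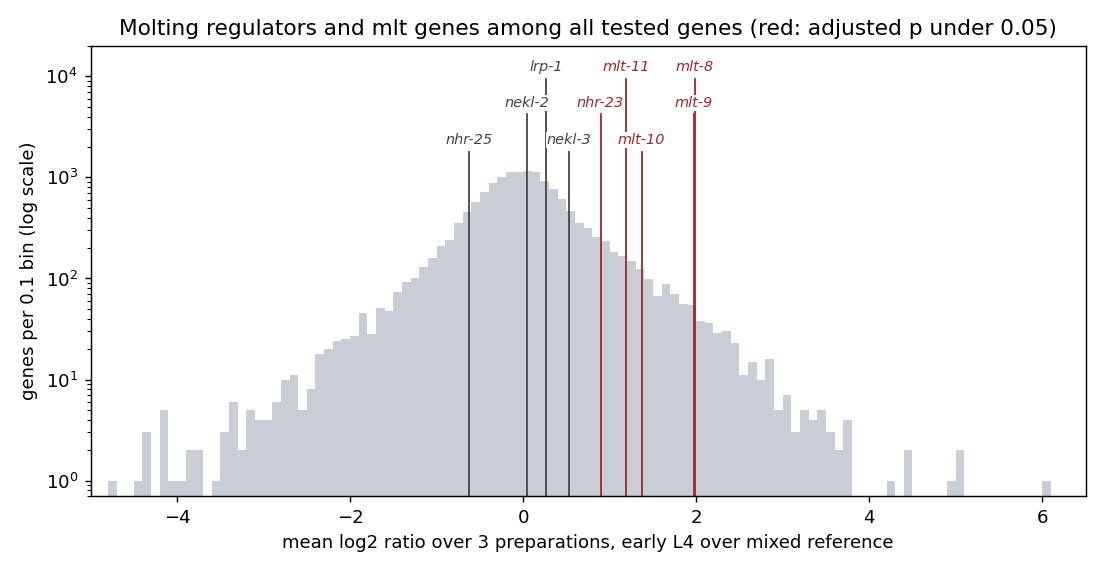
Histogram of the mean log2 ratio over the 3 preparations for the 15159 genes tested (horizontal axis; vertical axis, genes per bin on a log scale), with a vertical line for each of the 9 genes, red where the adjusted p was under 0.05. The 5 red lines lie between 0.89 and 1.98, on the right shoulder of the distribution, and the other 4 lie between -0.62 and 0.53.

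The endocytic receptor and the kinases did not pass. lrp-1 (F29D11.1) had 0.30, 0.41 and 0.10 in preparations 1, 2 and 3, a mean of 0.27 ± 0.16 (SD, n = 3; limma adjusted p = 0.419). It was the tightest of the 9 genes, and its 95% interval of 0.86-fold to 1.68-fold bounds the ratio on both sides of 1. nekl-2 (ZC581.1), a kinase gene, had 0.21, 0.41 and -0.47, a mean of 0.05 ± 0.46 (limma adjusted p = 0.911; 95% interval 0.71-fold to 1.51-fold). Its sign was mixed, and the mean turned negative without preparation 1 (-0.03), without preparation 2 (-0.13) and after quantile normalization (-0.0083).

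nekl-3 (F19H6.1), the other kinase gene, was above 0 on every array, at 0.19, 0.94 and 0.46 in preparations 1, 2 and 3. The mean was 0.53 ± 0.38 (SD, n = 3; 1.44-fold, 95% interval 1.01-fold to 2.07-fold; limma adjusted p = 0.139, unadjusted p = 0.0473). Without preparation 1 it passed (adjusted p = 0.0486), with a range of 0.0486 to 0.649 over 9 alternatives. nekl-3 minus nekl-2 was -0.02, 0.53 and 0.93 on the 3 arrays, a mean of 0.48 ± 0.48 (SD, n = 3). The exact sign permutation test, two-sided, gave p = 0.5, where the smallest that 3 arrays allow is 0.25.

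By mean ratio the order was mlt-8, mlt-9, mlt-10, mlt-11, nhr-23, nekl-3, lrp-1, nekl-2 and nhr-25. Neighbours in this order had overlapping 95% intervals throughout, so it is a description. mlt-8, mlt-9 and mlt-10 had intervals that did not reach those of lrp-1, nekl-2 or nhr-25.

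Genes that work beside the kinases seldom passed. Of 20 listed NEKL partners and clathrin endocytosis genes, 15 were measured: 1 rose and 0 fell (6.67% called, against 22.7% of all genes). Their median was -0.09. The direction of the calls depended on the arrays: 0 were higher and 1 lower without preparation 2, 0 higher and 2 lower without preparation 3, and 1 higher and 1 lower after quantile normalization. At an unadjusted p under 0.05 there were 4, with no share of all genes computed at that threshold. The gene that rose was chc-1 (T20G5.1), the clathrin heavy chain, at 0.74 ± 0.25 (SD, n = 3; limma adjusted p = 0.0391), and it no longer passed without preparation 2 (adjusted p = 0.0907), without preparation 3 (0.254) or with trend and robust settings (0.0532). The ankyrin-repeat partners mlt-2 and mlt-4, chosen after their values were seen, had -0.09 ± 0.29 and -0.47 ± 0.67. Together with mlt-7, a peroxidase gene at -0.23 ± 0.19, they were the 3 measured genes of the mlt class, 7 in all, that did not pass.

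Relatives of mlt-10 were mixed. The mltn class (mlt-10 related) has 13 genes in the gene table, 7 of them measured: 2 rose, 0 fell (28.6% called, near the 22.7% of all genes), and the median was 0.41. mltn-9 (F19H8.4) had 0.46, 1.47 and 2.27 in preparations 1, 2 and 3, a mean of 1.40 ± 0.91 (SD, n = 3; limma adjusted p = 0.0115). mltn-12 (C53B4.8), averaged over its probes, had 1.34, 1.00 and 0.79, a mean of 1.04 ± 0.28 (limma adjusted p = 0.00842). mltn-9 was lowest in preparation 1, and mltn-12 was highest there. The other measured members ranged from -0.50 to 0.59.

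Among other regulators of the molting cycle and of larval timing, lin-42 and myrf-1 passed. Of 15 such transcription factors and timing genes, 13 were measured: 2 rose, 0 fell (15.4% called, against 22.7% of all genes), and the median was -0.11. lin-42 (F47F6.1), the worm relative of the circadian gene period, had 1.79, 1.75 and 0.45 in preparations 1, 2 and 3 (mean 1.33 ± 0.76, SD, n = 3; limma adjusted p = 0.00948). myrf-1 (F59B10.1), a membrane-tethered transcription factor of larval development, had 1.04, 1.39 and 1.21 (mean 1.21 ± 0.18; limma adjusted p = 0.00338). Thus lin-42 was low in preparation 3, while myrf-1 was even across preparations. Without preparation 1 the number called in this list was 4.

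Genes that remodel the cuticle had members in both directions. Of 12 molting proteases and protease inhibitors, 7 were called higher and 1 lower (66.7% called, against 22.7% of all genes), and the median was 0.75. With trend and robust settings, without preparation 2 or without preparation 3, 5 were higher and 1 lower. After quantile normalization 7 were higher and 2 lower, and without preparation 1, 6 were higher and 2 lower. The cathepsin L gene cpl-1 (T03E6.7) had 1.75 ± 0.56 and acn-1 (C42D8.5), related to angiotensin-converting enzyme, 1.74 ± 0.16 (SD, n = 3), and the proprotein convertase gene bli-4 (K04F10.4) had 0.72 ± 0.24. The bli-4 call was lost without preparation 2 (limma adjusted p = 0.318) and without preparation 3 (0.11). The gene that fell was cpi-1 (K08B4.6), a cystatin-like inhibitor of cysteine proteases, at -2.64 ± 0.81. The astacin proteases nas-36 and nas-37, which as background are needed to shed the old cuticle, had 1.00 ± 0.33 and 1.21 ± 0.36 and were picked with their values in view (nas-36 did not pass without preparation 3, adjusted p = 0.0549). Thus the inhibitor gene mlt-11 rose and the inhibitor gene cpi-1 fell, while the Kunitz-type inhibitor gene bli-5 had -0.22 ± 0.62 and did not pass. The related gene cpi-2 had -0.67 ± 0.45 and did not pass either (limma unadjusted p = 0.0214).

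Of 11 genes of collagen processing and cross-linking, 5 were called higher and 0 lower (45.5%, against 22.7% of all genes), and the median was 0.62. The disulphide isomerase gene pdi-2 had 2.30 ± 0.17 and the prolyl hydroxylase gene dpy-18 had 1.98 ± 0.59 (SD, n = 3). At the low end of those called were the dual oxidase gene duox-2, at 0.79 ± 0.42, and the prolyl hydroxylase gene phy-2, at 0.70 ± 0.13. Neither passed without preparation 2 (limma adjusted p = 0.364 and 0.261) or without preparation 3 (0.0686 and 0.128). With trend and robust settings, or without preparation 2 or 3, the count was 3. Of 12 measured patched-related and hedgehog-related genes, 3 were called higher and 0 lower (25%, near the 22.7% of all genes), and the median was 0.55. They were ptr-4 at 1.62 ± 0.54, ptr-11 at 1.45 ± 0.34 and ptr-16 at 1.21 ± 0.63. The count was 6 without preparation 1 and 5 after quantile normalization.

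Of the 7 lists, that of the apical extracellular matrix and precuticle, the temporary coat laid down before the cuticle, had the highest share called (72.7%, against 22.7% of all genes). Among its 11 measured genes 7 rose and 1 fell, and the median was 1.30. The number called was 10 without preparation 1 and 9 after quantile normalization. It was 7 with trend and robust settings, without preparation 2 or without preparation 3. noah-2 (F52B11.3), a zona pellucida domain gene, had 1.38, 3.04 and 3.01 in preparations 1, 2 and 3 (mean 2.48 ± 0.95, SD, n = 3; limma adjusted p = 0.000688). lpr-3 (W04G3.8), a lipocalin-related gene, had 0.72, 2.98 and 2.74 (mean 2.15 ± 1.24; limma adjusted p = 0.00369). phg-1 had 1.26 ± 0.40, and dex-1, a matrix gene, fell, at -0.99 ± 0.52.

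**Figure D3:**
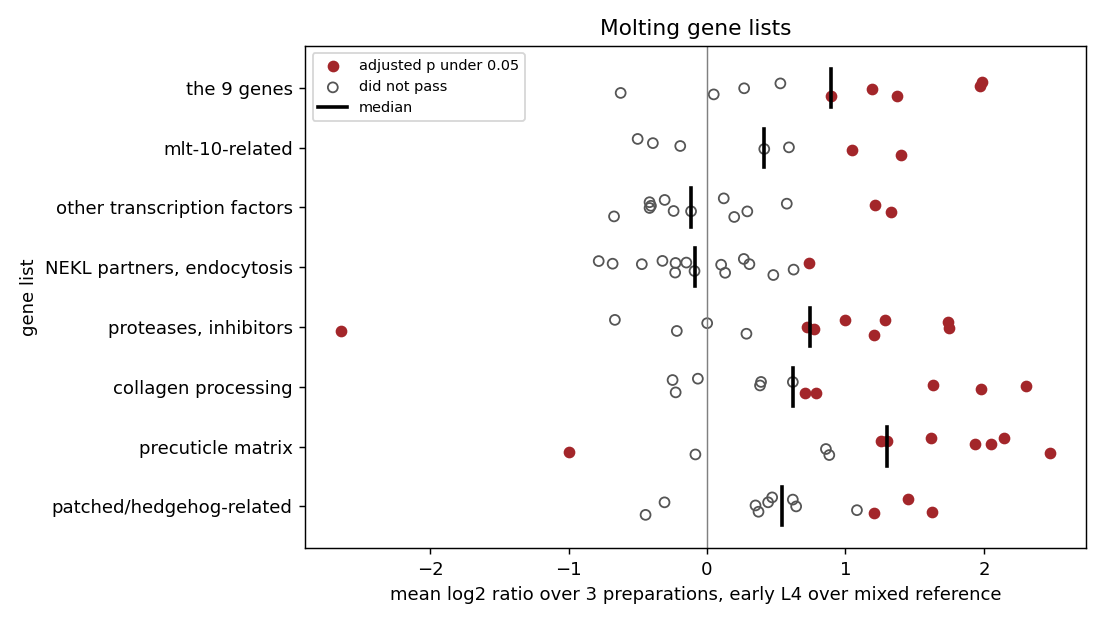
Mean log2 ratio over the 3 preparations (horizontal axis) for the 9 genes and for the measured genes of 7 molting lists (rows), filled where the adjusted p was under 0.05, with a bar at each median and points shifted vertically for legibility. Medians run from -0.11 for the other transcription factors to 1.30 for the precuticle matrix list.

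Some molting genes differed between the 3 arrays, in both directions, while others hardly differed. Each preparation had 1 array, so differences between preparations could not be told apart from differences between arrays, and their cause was not tested. mlt-11 in preparation 1 lay 1.89 log2 units below the mean of the other preparations, a difference larger in size than in 99.3% of all genes. nhr-25 lay 1.02 below and nhr-23 lay 0.51 below. mlt-10 went the other way and lay 0.83 above, and mlt-9 lay 0.41 above, whereas mlt-8 differed by -0.05 and lrp-1 by 0.04. The difference between mlt-11 and mlt-10 was -1.99, 0.41 and 1.05 in preparations 1, 2 and 3, so their order turned between preparation 1 and the others.

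The precuticle list was low in preparation 1. Its median log2 ratio was 0.24 in preparation 1, 1.81 in preparation 2 and 2.11 in preparation 3. Of its 11 measured genes, 10 were lowest in preparation 1, against 40.8% of all genes. Of the 9 genes, 4 were lowest in preparation 1 and 4 in preparation 3. Preparation 1 was also the highest array for 38.4% of all genes. In preparation 1, 8 of the 11 lay more than 1 below the mean of the other preparations, as did 2 of the 9 genes and 9.55% of all genes. fbn-1, a fibrillin-related gene, had -0.23, 2.02 and 2.11, and sym-1 had 0.24, 1.95 and 2.66. Both were near 0 in preparation 1, like mlt-11, and were picked with their values in view. The fbn-1 call was lost without preparation 2 (limma adjusted p = 0.0812) and without preparation 3 (0.0644). The 8 epidermal markers did not move together: 5 were lowest in preparation 1 and 3 in preparation 3, and their medians were -0.46, 0.90 and 0.87 in preparations 1, 2 and 3. Of these markers, che-14 and wrt-2 are also in the patched-related and hedgehog-related list, and elt-3 in that of other transcription factors. The collagen gene dpy-7 had -0.92, 1.41 and 1.48, whereas the collagen gene sqt-3 had 2.83, 2.55 and 1.72 and was highest in preparation 1. Over the 3 arrays 2 of the markers rose, 1 (col-19, an adult collagen, also highest in preparation 1) fell and 5 did not pass. This was 37.5% called, against 22.7% of all genes. The part of these markers in the result was not tested.

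**Figure D4:**
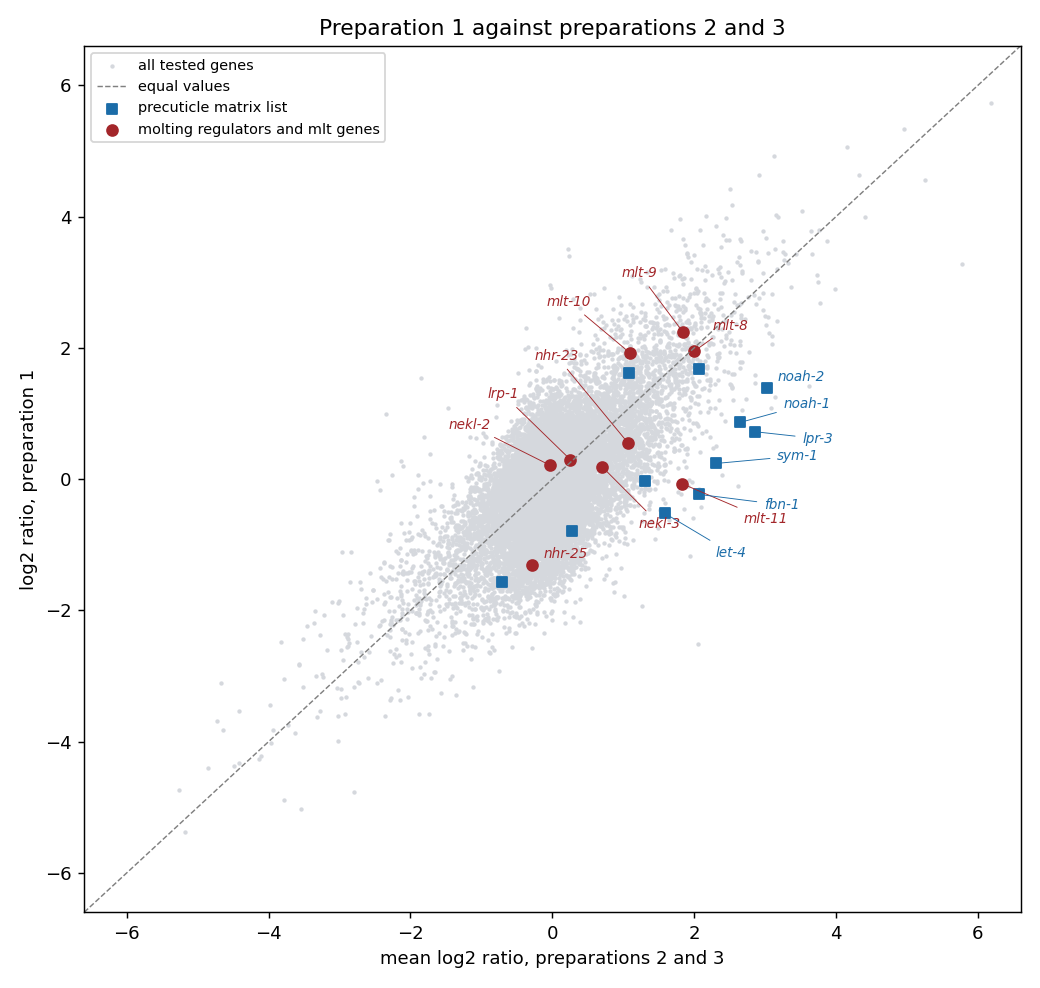
Log2 ratio in preparation 1 (vertical axis) against the mean of preparations 2 and 3 (horizontal axis) for all genes tested (grey), the 9 genes (red circles) and the precuticle matrix list (blue squares), with a dashed line at equal values. mlt-11 lies 1.89 below the line beside fbn-1, let-4 and sym-1, while mlt-10 lies 0.83 above it.

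Markers of the germline and the embryo were also set side by side. All 8 sperm markers rose (100% called, against 22.7% of all genes), with medians of 2.69, 2.57 and 2.62 in preparations 1, 2 and 3. They include pairs from the msp, spch and gsp classes, which may not be independent. Of 9 oocyte and eggshell markers 8 fell and 1 did not pass (88.9% called), with medians of -1.97, -2.08 and -2.08. Of 4 measured embryonic markers 2 fell and 1 rose (75% called). Their medians were -0.97, -0.60 and -1.49 in preparations 1, 2 and 3, and all 4 were lowest in preparation 3.

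For each gene that rose, the class-named genes with the most similar 3 ratios were found among 9083 by Euclidean distance, as a description over 3 arrays. Closest to nhr-23 were bus-1 (distance 0.051), nyn-3 (0.103) and lon-1 (0.111). Closest to mlt-8 were har-1 (0.138), act-3 (0.187) and tba-4 (0.204); actin and tubulin genes have near-identical copies that can share RNA on a probe, so the last 2 are uncertain. mlt-9 had pgph-3 (0.026), anmt-3 (0.107) and gst-13 (0.182), and mlt-10 had spe-11 (0.132), nspd-3 (0.153) and dld-1 (0.171). The genes closest to mlt-11, best-26, lpr-4 and ugt-57, were farther off, at distances of 0.225, 0.252 and 0.406.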

How the data were processed

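Each of 3 samples was a 2-colour array, with the reference in channel 1 and 1 early L4 preparation in channel 2, per the labels. The log2 ratios were used as the authors deposited them; raised as powers of 2, at least 99.96% on each array were whole thousandths (within 0.01 of a thousandth). Array medians were 0.054, -0.082 and -0.025. Dyes, background correction, normalization and numerator: not given in the sources used here.

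Of 20000 probes, 15655 named 1 gene in the platform annotation, 198 several and 4147 none; symbols were updated through the WBcel235 gene table (15569 by gene number, 86 by symbol). Arrays were centred on their medians, probes of a gene averaged, and 15159 genes with values on at least 2 arrays tested against 0 with lmFit and eBayes (limma 3.58.1, R 4.3.3), Benjamini-Hochberg adjusted. The code of the fit was run on data simulated under limma's own assumptions, with independent arrays and few changed genes. That run checks the code and cannot show that the assumptions hold for these arrays.

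The 9 genes and all lists were chosen with earlier results of these data known. Genes named by rule were the 9, the 2 highest and 2 lowest called per list, and the 3 nearest per called gene; all other names were picked with values in view. No sequences were used. Alternatives were no centring, quantile normalization, genes on all 3 arrays, trend and robust settings, single probes, each preparation left out and, added later, every probe.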

Additional observations from a re-analysis of the deposited data

How the results depend on the processing

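Of 81 values of the 9 genes under the alternatives, 72 kept direction and side of the threshold, 5 lost the call, 1 gained it and 3 turned sign. mlt-11 lost its call, with an unchanged mean of 1.19, under trend and robust settings and with every probe tested; these alternatives change only the variance model and the number of tests. nekl-2 had -0.0083 after quantile normalization. With 1 preparation left out, the log2 ratio lay between 0.74 and 1.07 for nhr-23 and between 0.71 and 1.82 for mlt-11. It lay between 0.32 and 0.70 for nekl-3 and between -0.13 and 0.31 for nekl-2. With these omissions 3 to 6 of the 9 genes passed, and 16% to 26% of all genes. Such fits have 2 arrays and take much of each gene's spread from all genes. Under the same omissions 2 to 4 of the other transcription factors passed, 1 to 2 NEKL partners and endocytosis genes (2 higher without preparation 1, 1 lower without 2 and 2 lower without 3), 3 to 5 collagen processing genes and 3 to 6 patched-related and hedgehog-related genes. Quantile normalization gave 2 NEKL partners and endocytosis genes (1 higher, 1 lower) and 5 patched-related and hedgehog-related genes, and trend and robust settings gave 0 NEKL partners and 3 collagen processing genes. Signal over background could not be examined, since the ratios carry no brightness. No pairing of samples between groups was possible because all samples form 1 group. The cause of these changes was not tested. Of 26 genes named from the lists, 20 kept their call and direction in every alternative run on them. The genes chc-1, bli-4, duox-2, phy-2, nas-36 and fbn-1 lost the call in at least 1. With single probes or every probe tested, mltn-12 and lin-42 were each scored on 1 probe, not on the average of their probes. That probe was above the average for mltn-12 and below it for lin-42, so the kept calls do not cover their other probes.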

Other observations

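In the order of protein-coding genes of WBcel235, mlt-10 and mlt-8 lie on the same chromosome with 4 protein-coding genes between them. Of these, 3 were measured, 1 of which rose, with mean log2 ratios between -0.57 for W08F4.5 and 0.76 for C09E8.1. The genes directly beside mlt-8, W08F4.5 and W08F4.7, had -0.57 ± 0.23 and -0.09 ± 0.52 (SD, n = 3), and neither passed. Beside mlt-11, W01F3.2 fell, at -2.51 ± 0.28 (limma adjusted p = 0.00011), and the chemoreceptor-class gene srsx-35 had 0.36 ± 0.39. Beside nhr-25, vwa-8 rose, at 1.26 ± 0.32 (limma adjusted p = 0.00363). Beside mlt-10, T27A1.3 fell, at -0.73 ± 0.23 (limma adjusted p = 0.0396), and beside nekl-2, ZC581.7 rose, at 1.60 ± 0.72 (0.00324). The other direct neighbours of the 9 genes did not pass. Over all genes tested, 22.7% were called, so calls among neighbours are no trait of these places. These neighbours were looked at after the values of the 9 genes were known.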
